A study of Mus musculus with 4 samples.

Results

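Hyaluronan, the proteins that bind it and the matricellular glycoproteins were followed in embryonic mouse ureters of a conditional mutant for the FGF receptor genes Fgfr1 and Fgfr2. The set holds 10 genes, taken by symbol from the array's annotation: the synthases Has1 and Has2, the link protein Hapln1, the lecticans Vcan and Acan, the receptor Cd44, the fibronectin gene Fn1, and Tnc, Postn and Sparc. They carry 18 of the 39429 probes and are 10 of the 29875 gene names on the array. After probes near background were removed, 9 of the 10 members remained among 19365 genes, through 16 of 25591 probes. Has1 did not remain.

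RNA came from dissected ureters of NMRI mouse embryos at E14.5 (days of embryonic development). The mutant, called cDKO here as in the labels, carried Tbx18(cre/+) together with Fgfr1(fl/fl) and with Fgfr2(fl/fl). The control was Fgfr1(fl/?) with Fgfr2(fl/?), where the second allele of each gene is left unstated and no cre is listed. Cre is expressed from the Tbx18 locus, which is active in the mesenchyme around the ureteric epithelium, so the epithelium is not the target of the deletion. Because cre sits in 1 Tbx18 allele, the loss of that allele and the loss of the receptors cannot be told apart. Each of 4 two-colour arrays held 1 cDKO and 1 control sample of the same labelled sex. Replicates 1 and 4 were female, and replicates 2 and 3 were male. Replicates 1 and 2 were on slide 1, and replicates 3 and 4 were on slide 2. The cDKO RNA was in Cy5 on replicates 1 and 3 and in Cy3 on the others. The labels do not say how many embryos gave a sample or whether samples were pooled, and the p-values cover no more than the spread among the samples at hand.

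Hyaluronan is a long unbranched sugar polymer that synthases in the plasma membrane extrude into the matrix. Lecticans such as versican and aggrecan bind it through their N-terminal domains, link proteins lock that binding, and CD44 ties the polymer to the cell surface. Fibronectin is assembled by integrins into fibrils, while tenascin-C, periostin and SPARC are matricellular proteins, which adjust how cells hold to the matrix rather than building it. In embryonic mesenchyme such matrices surround loosely packed, proliferating cells.

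A ratio below is the log2 of cDKO over control within an array, and a fitted ratio is the limma estimate over the 4 arrays with its standard error (SE). A level is the log2 intensity of 1 channel after scaling between arrays, and it is compared only within a probe. A gene was called at a limma adjusted p under 0.05, with Benjamini-Hochberg adjustment over all 19365 genes. By this rule 165 genes (0.852%) were called, 107 higher (0.553%) and 58 lower (0.300%) in cDKO. Between 64.9% and 72.6% of spots were well above background in a channel, and no spot was saturated. All 9 urothelial, 7 mesenchymal and 5 smooth muscle markers listed for the tissue were measured. Fgfr1 had ratios of -0.35, -0.09, -0.59 and -0.55 on replicates 1 to 4 (fitted -0.40 ± 0.10 SE, limma adjusted p = 0.117). Fgfr2 rose, with ratios of 0.68, 0.50, 0.56 and 0.60 (fitted 0.59 ± 0.07, adjusted p = 0.0356), and was called in 10 of 17 other settings, though not without replicate 1 or without replicate 2. The position of the floxed parts was not used here, so these probes do not check the deletion. The sex labels held for the main signal, but some channels carried signal of the other sex. Xist stood at 10.58 and 8.75 in the controls of the male replicates 2 and 3, against 7.07 and 6.25 in their cDKO partners and 12.59 to 12.76 in the female channels. Among the female samples, the Y-linked gene Ddx3y stood at 9.85 in control 1 and 8.82 in cDKO 4, against 7.74 in cDKO 1 and 6.21 in control 4. The part this played in the ratios of the members was not tested.

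**Figure D1:**
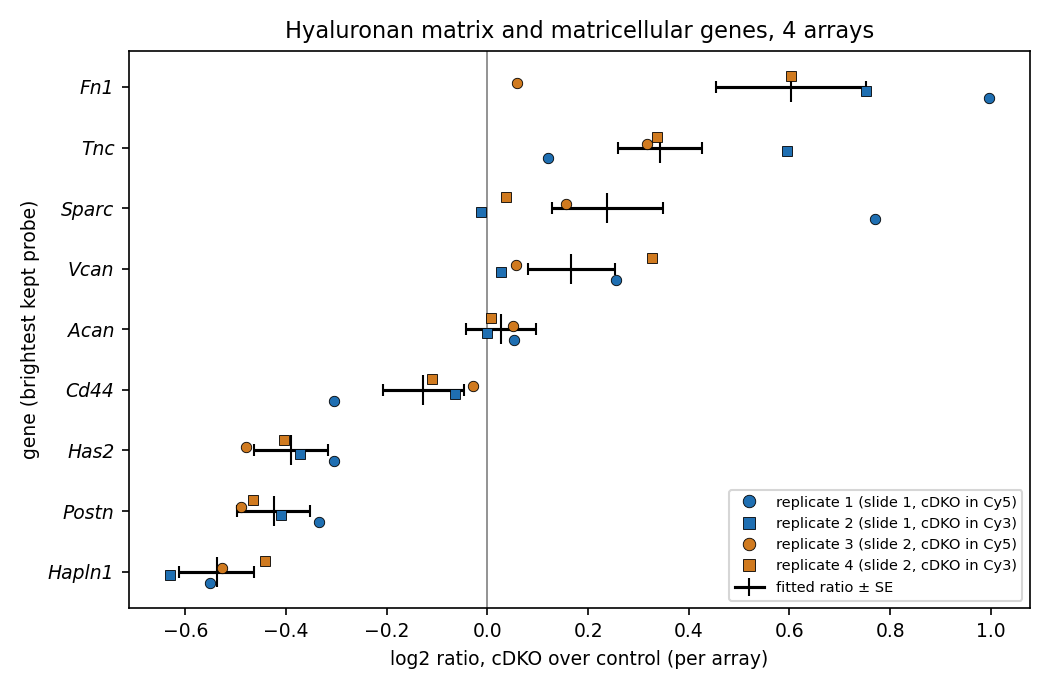
Log2 ratio of cDKO over control (x axis) for the 9 measured members (y axis), with 1 point per array and the fitted ratio ± SE in black; colour gives the slide and the symbol the dye of the cDKO sample. Postn, Hapln1, Has2 and Cd44 lie below 0 on all 4 arrays, and Fn1, Tnc and Vcan lie above 0 on all 4.

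The members did not move as a block. Hapln1, the link protein, fell and was the only member called, 1 of 9. The synthase Has2 and the periostin gene Postn stood lower in cDKO on every array without passing the test, and Fn1, Tnc and Vcan stood higher on every array without passing it. Ratios were thus below 0 on all 4 arrays for 4 of 9 members, against 11.8% of all genes, and above 0 on all 4 for 3 of 9, against 13.4%. Of those 3, Tnc passed the filter on dim probes through the cDKO channel alone, where it is higher, so its sign carries no weight in that count. The median fitted ratio was 0.03 for the members and 0.01 for all genes. Over all genes the correlation of ratios between arrays ran from 0.006 (replicates 2 and 3) to 0.51 (replicates 1 and 2). An unadjusted p under 0.05 was reached by 5 of the 9 members and by 19.6% of all genes. Tnc is among those 5, and because of the filter its p carries no weight in this share either. The members were chosen with earlier results of these data known, so these shares describe them and test nothing.

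Has2 encodes the main hyaluronan synthase of embryonic mesenchyme, and its probe lies at chr15:56497356-56497415 on the minus strand (mm9). Its level was 12.54, 12.53, 12.40 and 12.56 in the cDKO samples of replicates 1 to 4. In the controls it was 12.85, 12.91, 12.88 and 12.96. All 4 cDKO levels lay below all 4 control levels, as they did for Postn as well and for 3.33% of all genes. The ratios were -0.31, -0.37, -0.48 and -0.40, with a fitted ratio of -0.39 ± 0.07 (SE, n = 4 arrays), or 0.763 times the control. Has2 missed the threshold (limma adjusted p = 0.0727). In whole ureters, fewer cells of a type and less RNA per cell cannot be told apart, for Has2 or for any other member. Has2 was called in 1 of 17 other settings, the fit with slide as a term (adjusted p = 0.0113).

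Has1 encodes another synthase, and its probe (chr17:17980413-17980472, minus strand) was well above background on 2 of 4 arrays in each channel. The ratios were -0.19, 0.18, 0.47 and 0.13, on both sides of 0. Without the filter on dim probes its fitted ratio was 0.14 ± 0.12 (limma adjusted p = 0.676). At this signal a difference in Has1 was not detectable.

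Hapln1 encodes the link protein that stabilises the bond between hyaluronan and a lectican. Its probe lies at chr13:89751096-89751155 on the plus strand (mm9). The cDKO samples of replicates 1 to 4 had levels of 11.57, 11.36, 11.03 and 11.34, and their control partners had 12.12, 11.99, 11.56 and 11.78. The groups overlap across arrays, since cDKO 1 lies at the level of control 3, but the cDKO sample was the lower one within every array. The ratios were -0.55, -0.63, -0.53 and -0.44. Hapln1 fell by 0.54 ± 0.07 on the log2 scale (SE, n = 4 arrays), to 0.689 times the control (limma adjusted p = 0.0425). The mean ratio was -0.59 on slide 1 and -0.48 on slide 2, and it was -0.50 in the female pairs and -0.58 in the male pairs.

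The Hapln1 difference ran from -0.59 to -0.48 across the 17 other settings. Terms for dye, slide or sex could not move it, since the arrays are balanced for them. The filters and the probe choice could not move it either, since Hapln1 has no other probe. The call was made in 9 of the 17. It was lost within slide 1, within slide 2, with the sex label as a term, with median centring, without the filter on dim probes, and without replicate 1, 2 or 3, where the limma adjusted p ran from 0.0547 to 0.437. Hapln1 is also known as a cartilage gene. Of the 9 cartilage markers listed, 5 were measured (Col2a1, Col9a1, Col9a3, Col11a2 and Matn4), all 5 had fitted ratios above 0 (0.02 to 0.64) and none was called. Their summed linear level was 104.6% to 121.8% of the control within arrays. Matn1, Matn3, Cnmd and Snorc did not pass the filter, and the part of cartilage in the Hapln1 value was not tested.

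RefSeq's promoter table for GRCm38.p6 holds an entry for 8 of the 10 members, and none for Has2 or Fn1. The 250 bases before the listed start of Hapln1 are shown because it was the only member called. They lie at chr13:89540386-89540635 on the plus strand of that build.
Hapln1: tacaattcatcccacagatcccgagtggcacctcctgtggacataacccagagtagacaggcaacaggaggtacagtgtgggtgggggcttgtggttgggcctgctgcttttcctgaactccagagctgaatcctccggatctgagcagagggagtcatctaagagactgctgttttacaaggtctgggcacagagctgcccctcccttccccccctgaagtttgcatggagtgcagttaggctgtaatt
Neither an ETS core (CCGGAAG, either strand), the kind of motif read by ETS factors that act downstream of FGF receptors, nor a GLI consensus (TGGGTGGTC, either strand) stood in the 300-base entry of Hapln1 or of any other member. Of all 32851 promoters, 8.86% held the ETS letters and 0.253% the GLI letters. The absence of these letters says nothing about the factors.

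Vcan encodes versican, the large lectican of embryonic mesenchyme, and in RefSeq it is the next gene to Hapln1 on chromosome 13, with the probes used for the pair 43.9 kb apart. Its probe lies at chr13:89795080-89795139 on the minus strand (mm9), opposite to Hapln1. The cDKO levels were 15.24, 15.21, 15.22 and 15.43 and the control levels 14.98, 15.19, 15.17 and 15.11. All 4 cDKO levels lay above all 4 control levels, as for Fn1 as well and for 4.71% of all genes, though replicates 2 and 3 differed little. The ratios were 0.26, 0.03, 0.06 and 0.33, and the fitted ratio was 0.17 ± 0.09 (limma adjusted p = 0.340). The sign of Vcan was thus opposite to that of its neighbour on every array.

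The other Vcan probes did not repeat this pattern. A probe at chr13:89851810-89851869, listed like the first for 4 transcripts, had ratios of -0.27, 0.11, -0.14 and 0.18 (fitted -0.03 ± 0.07, limma adjusted p over all kept probes 0.875). A probe at chr13:89850072-89850131, listed for 1 transcript, had -0.47, 0.18, 0.23 and 0.32 (fitted 0.07 ± 0.12, adjusted p over probes 0.819). Averaged over its 3 probes, Vcan stood at 0.07, and without replicate 4 its first probe stood at 0.09.

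Acan encodes aggrecan, the lectican that fills cartilage. Its ratios were 0.05, -0.00, 0.05 and 0.01, and its levels were 7.10 to 7.18 in cDKO and 7.04 to 7.18 in the controls. The fitted ratio was 0.03 ± 0.07 (limma adjusted p = 0.873), so no difference was detectable in this probe (chr7:86259741-86259801, plus strand). Hapln3, the link protein gene that neighbours Acan, had a fitted ratio of -0.06 ± 0.08 (adjusted p = 0.729).

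Cd44 encodes the main hyaluronan receptor of the cell surface and is carried by mesenchymal cells and leukocytes. Its probe at chr2:102651398-102651457 on the minus strand (mm9) had levels of 10.19, 10.38, 10.19 and 10.25 in cDKO and 10.50, 10.45, 10.22 and 10.36 in the controls. The groups overlap, and the ratios of -0.31, -0.06, -0.03 and -0.11 were all below 0. The fitted ratio was -0.13 ± 0.08 (limma adjusted p = 0.434). Replicate 1 gave most of that distance, since the value without it was -0.06.

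The same gene read through a probe at chr2:102654278-102654337 had ratios of -0.36, -0.14, -0.18 and -0.19, with all cDKO levels below all control levels. Its fitted ratio was -0.22 ± 0.07 (limma adjusted p over all kept probes 0.196). A probe farther upstream (chr2:102677971-102678030) had -0.21, -0.22, -0.15 and 0.29 (fitted -0.07 ± 0.10, adjusted p over probes 0.748), and the remaining probe was too dim to test. Leukocyte markers stood lower beside Cd44. All 10 listed were measured, 9 had fitted ratios below 0, and Fcer1g, a signalling chain of myeloid Fc receptors, fell (-0.52 ± 0.08, limma adjusted p = 0.0490), a call that held in 6 of 17 other settings and was lost without any 1 of the 4 replicates. Their summed linear level ran from 16248 to 20306 in cDKO and from 21378 to 25250 in the controls, and the part of this in the values of Cd44 was not tested.

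**Figure D2:**
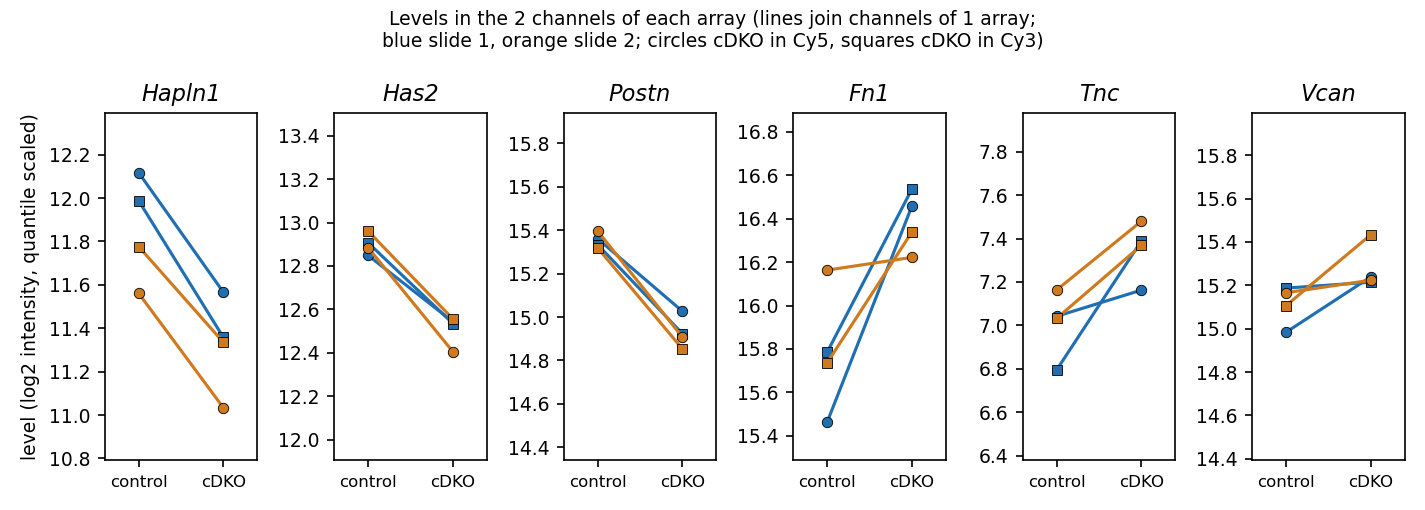
Levels of 6 members (y axis, log2 intensity, each panel spanning the same range) in the control and cDKO channel, with a line joining the channels of 1 array; blue is slide 1 and orange slide 2. For Hapln1, Has2 and Postn every line slopes down from control to cDKO, for Fn1, Tnc and Vcan every line slopes up, and the line of Fn1 on replicate 3 (16.16 to 16.22) is nearly flat.

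Fn1 encodes fibronectin, and of the members it had the largest positive fitted ratio and the least even one. Its probe lies at chr1:71632116-71632175 on the minus strand (mm9). The cDKO levels were 16.46, 16.54, 16.22 and 16.34, and the control levels were 15.46, 15.78, 16.16 and 15.74. No cDKO level lay below a control level, and the spread was wider among the controls. The ratios were 1.00, 0.75, 0.06 and 0.60, so replicates 1, 2 and 4 were clearly above 0 and replicate 3 was close to it. The fitted ratio was 0.60 ± 0.15 (SE, n = 4 arrays), or 1.52 times the control, and it missed the threshold (limma adjusted p = 0.113). Fn1 was called within slide 1 (0.87, adjusted p = 0.0201), with slide as a term (adjusted p = 0.00708) and without replicate 3 (0.84, adjusted p = 0.0243). Without replicate 1 it stood at 0.37, and within slide 2 at 0.33. The difference of its ratio between slides did not pass the test either (0.54, adjusted p = 0.264).

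Postn encodes periostin, a matricellular protein of connective tissue that binds integrins and cross-links collagen-rich matrix. Its probe lies at chr3:54194840-54194899 on the plus strand (mm9). The levels were 15.03, 14.92, 14.91 and 14.85 in cDKO and 15.36, 15.33, 15.40 and 15.32 in the controls, and the groups do not overlap. The ratios were -0.33, -0.41, -0.49 and -0.47, an even set across slide, dye and sex label. The fitted ratio was -0.42 ± 0.07 (SE, n = 4 arrays), or 0.745 times the control (limma adjusted p = 0.0627). Postn was called in 2 of 17 other settings, without the dye term (adjusted p = 0.0465) and with slide as a term (adjusted p = 0.00771).

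Tnc encodes tenascin-C, a large hexameric matricellular protein of remodelling mesenchyme. Both of its probes were well above background on 4 of 4 cDKO and on 3 of 4 control arrays, so both passed the filter through the cDKO channel alone, which favours a ratio above 0. They are shown because they read different stretches of the transcript. The first spans 764 bases of the genome (chr4:63674248-63675011, minus strand, mm9) with a sequence of 60 bases, so it crosses an intron. The second lies at chr4:63643728-63643787 on the same strand.
Tnc first probe: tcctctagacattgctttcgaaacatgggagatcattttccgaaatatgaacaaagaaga
Tnc second probe: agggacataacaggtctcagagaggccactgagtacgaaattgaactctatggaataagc

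The first Tnc probe had ratios of 0.12, 0.59, 0.32 and 0.34 and the second 0.08, 0.05, 0.27 and 0.25. Both were above 0 on all 4 arrays. The first had levels of 7.16, 7.39, 7.48 and 7.37 in cDKO and of 7.04, 6.79, 7.16 and 7.03 in the controls, which touch only where cDKO 1 meets control 3. The fitted ratio was 0.34 ± 0.08 for the first (limma adjusted p = 0.112) and 0.16 ± 0.08 for the second (adjusted p over all kept probes 0.336). Because of the filter these p-values may be too small for Tnc. Tnc missed the threshold in each setting except with slide as a term (adjusted p = 0.0280), and it has no value under the stricter filter. With the scanner software's processed signals the first probe stood at 0.73 (limma adjusted p = 0.0865). In the deposited value table it stood at 0.73 (limma adjusted p = 0.0776). The size of the Tnc ratio thus depended on the processing, and its sign was favoured by the filter.

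Sparc encodes a collagen-binding matricellular protein that is abundant in mesenchyme. Its probe at chr11:55208939-55208998 on the minus strand (mm9) had ratios of 0.77, -0.01, 0.16 and 0.04, so replicate 1 alone was far from 0. In that replicate the control stood at 16.88, while the other controls stood at 17.47 to 17.51 and the cDKO samples at 17.45 to 17.65. The fitted ratio was 0.24 ± 0.11 (limma adjusted p = 0.297), and it was 0.08 without replicate 1. The other Sparc probes had fitted ratios of 0.10 ± 0.11 and 0.02 ± 0.07 (adjusted p over all kept probes 0.643 and 0.929), with values of 0.31 and 0.05 on replicate 1.

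Postn and Tnc share a feature of their starts. A TATA box written as TATATAA (either strand) stood in the promoter entries of 2 members, in 1 of their 2 entries each, and in 3.24% of all 32851 promoters. The last 30 bases before those starts are shown with the motif in capitals, from chr3:54361077-54361106 on the plus strand and chr4:64046937-64046966 on the minus strand (GRCm38.p6).
Postn: gcTATATAAactcagctctccagagcacag
Tnc: cTATATAAgcctgccaaagctggctgctcc
The motif began 28 bases before the start in Postn and 29 in Tnc, the usual place of a TATA box. The ratios of Postn were below 0 on all 4 arrays, and the sign of Tnc carries no weight because of the filter. A match describes letters and is not a site.

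**Figure D3:**
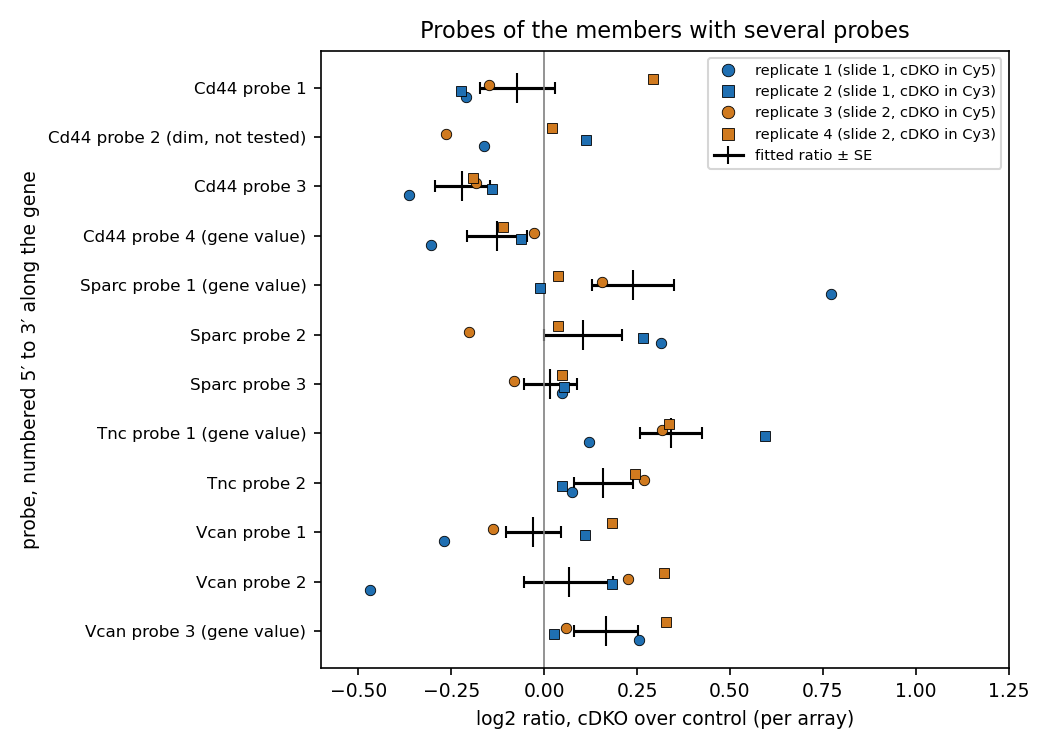
Log2 ratios of cDKO over control (x axis) for each probe of the 4 members with several probes (y axis, numbered from 5′ to 3′ along the gene), with 1 point per array and the fitted ratio ± SE in black where a probe was tested. The Tnc probes lie above 0 on all arrays, while single arrays of Vcan, Cd44 and Sparc probes lie on either side of 0.

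Differences by labelled sex, slide and dye were tested for all genes, and no member was called in any of them. The limma adjusted p of the sex label was 1.00 for all 9, the lowest for slide was that of Fn1 (0.264), and the lowest for dye was that of Sparc (0.603). Over all genes, limma called 173 genes between slides and 0 for the sex label and for the dye. At an unadjusted p under 0.05 there were 2767 genes for slide, 207 for the sex label and 1704 for the dye.

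Around the members stand the other genes that make, bind or break down hyaluronan, of which 23 of 31 were measured. Habp2, a serine protease that binds hyaluronan, rose (fitted 0.91 ± 0.10, limma adjusted p = 0.0315), with ratios of 0.98, 1.16, 0.84 and 0.65. Its other probe stood at 0.45 ± 0.07 (adjusted p over all kept probes 0.0570), and the call was lost within slide 2, with the sex label as a term, without the filter and without replicate 1. None of the others passed the test, and the median of the 23 was -0.02 (10 above 0 and 13 below). They include the hyaluronidases Hyal1 (-0.12) and Hyal2 (-0.02) and Ugdh (0.00), which makes the precursor UDP-glucuronate.

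Of the other matricellular genes 17 of 24 were measured, and their median was 0.14, with 12 above 0. Over all genes the median was 0.01, with 10196 of 19365 above 0. Smoc2, a calcium-binding protein related to SPARC, rose (fitted 0.64 ± 0.09, limma adjusted p = 0.0428), with ratios of 0.86, 0.69, 0.47 and 0.56. The other 16 did not pass, and Postn, with a fitted ratio of -0.42, lay below the lowest of the 17 (-0.27, Spp1, the osteopontin gene). Spp1 was dim (mean level 7.02 in cDKO and 7.29 in the controls), which limits what its ratio can show. The Smoc2 call held in 9 of 17 other settings and was lost without replicate 1 and without replicate 2.

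Among integrins and other receptors of the member proteins 15 of 16 were measured, with a median of -0.02. Itga4, whose α4 integrins bind fibronectin, rose (fitted 0.98 ± 0.09, limma adjusted p = 0.0213), with ratios of 1.08, 0.70, 1.06 and 1.09. Its second probe, which spans an intron, stood at 0.25 ± 0.09 (adjusted p over all kept probes 0.201). None of the other 14 passed, including Itga5 (-0.07), the α5 subunit of the classical fibronectin receptor, Itgav (0.07) and Itga8 (-0.29). The Itga4 call was lost within slide 2, with the sex label as a term and without the filter on dim probes.

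The enzymes that cut lecticans were measured for 6 of 7 genes, of which 5 stood above 0 and none passed the test. Their median was 0.26, but it was 0.41 on slide 1 and 0.02 on slide 2. Adamts8 had the smallest p of them, with ratios of 0.54, 0.55, 0.38 and 0.38 (fitted 0.46 ± 0.08, limma adjusted p = 0.0587). A dimmer Adamts8 probe, listed for the same transcript, went the other way, with -0.04, -0.14, -0.02 and -0.19. Its fitted ratio was -0.10 ± 0.07 (limma adjusted p over all kept probes 0.505). Adamts15, a versican-cleaving protease, had 0.38, 0.61, 0.02 and 0.32 (fitted 0.33 ± 0.10, adjusted p = 0.149). As in Fn1, the ratio of Adamts15 on replicate 3 was near 0.

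Markers of the surrounding cell types are given beside the members, where 9169 of all 19365 genes stood below 0. The mesenchymal list stood above 0 for 5 of 7 genes, with none called (median 0.38), and its summed linear level ran from 108585 to 118021 in cDKO and from 96962 to 108100 in the controls, while Has2 and Postn stood lower. Erythroid genes stood below 0 for 7 of 7, with Hba-x and Hbb-bh1 called, and endothelial genes for 6 of 7, with Emcn called (medians -0.33 and -0.27). Mesothelial genes stood below 0 for 3 of 4, with Msln, which encodes mesothelin, called (median -0.35). The remaining mesothelial gene, Wt1, was the brightest of the list and stood at 0.26. The summed linear level of that list ran from 72.8% to 174.7% of the control within arrays. Without replicate 1 none of these 4 calls held, without replicate 2 that of Msln alone, and without replicate 3 those of Msln and Hba-x. Urothelial genes stood below 0 for 7 of 9 (median -0.03), neuronal and glial genes for 5 of 7 (median -0.02) and smooth muscle genes for 1 of 5 (median 0.05), with none called. The urothelial gene with the smallest p was Upk3a, a uroplakin (fitted -0.91 ± 0.15, limma adjusted p = 0.0558). The part of these in the values of the members was not tested.

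**Figure D4:**
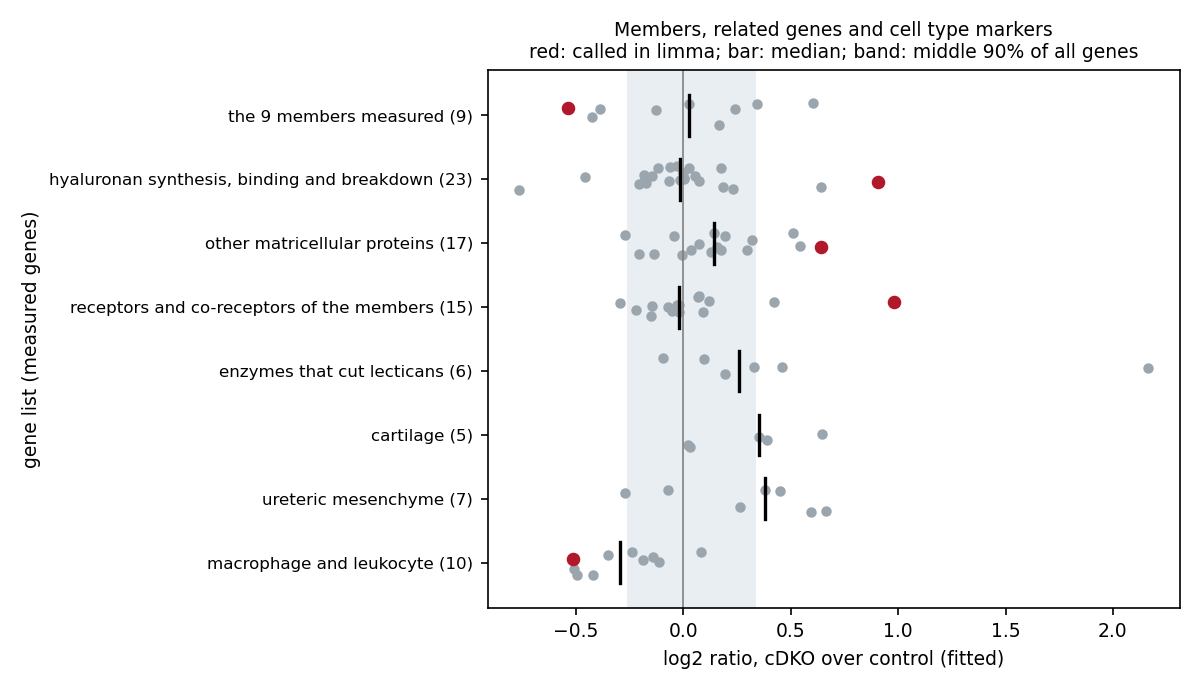
Fitted log2 ratios of cDKO over control (x axis) for the 9 measured members, 4 lists of related genes and 3 lists of cell type markers (y axis, number of measured genes in brackets), with called genes in red and a bar at each median; the shaded band holds the middle 90% of all genes (-0.26 to 0.33). Hapln1, Has2 and Postn lie to the left of the band, Fn1 and narrowly Tnc to the right of it, and the called genes are Hapln1, Habp2, Smoc2, Itga4 and Fcer1g.

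Across settings the direction of each of the 9 members was kept in every setting that gave it a value. Much of this was set in advance. Terms for dye, slide or sex leave an estimate as it is when the arrays are balanced. For the 3 members above 0 and the 4 below 0 on all arrays, no subset of arrays could reverse the direction. The number of members called ranged from 0 to 5. The 5 were Fn1, Hapln1, Has2, Postn and Tnc, in the fit with slide as a term, which called 2418 genes in all. Tnc passed the filter on dim probes through the cDKO channel alone, so its call carries no weight in this count.

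**Figure D5:**
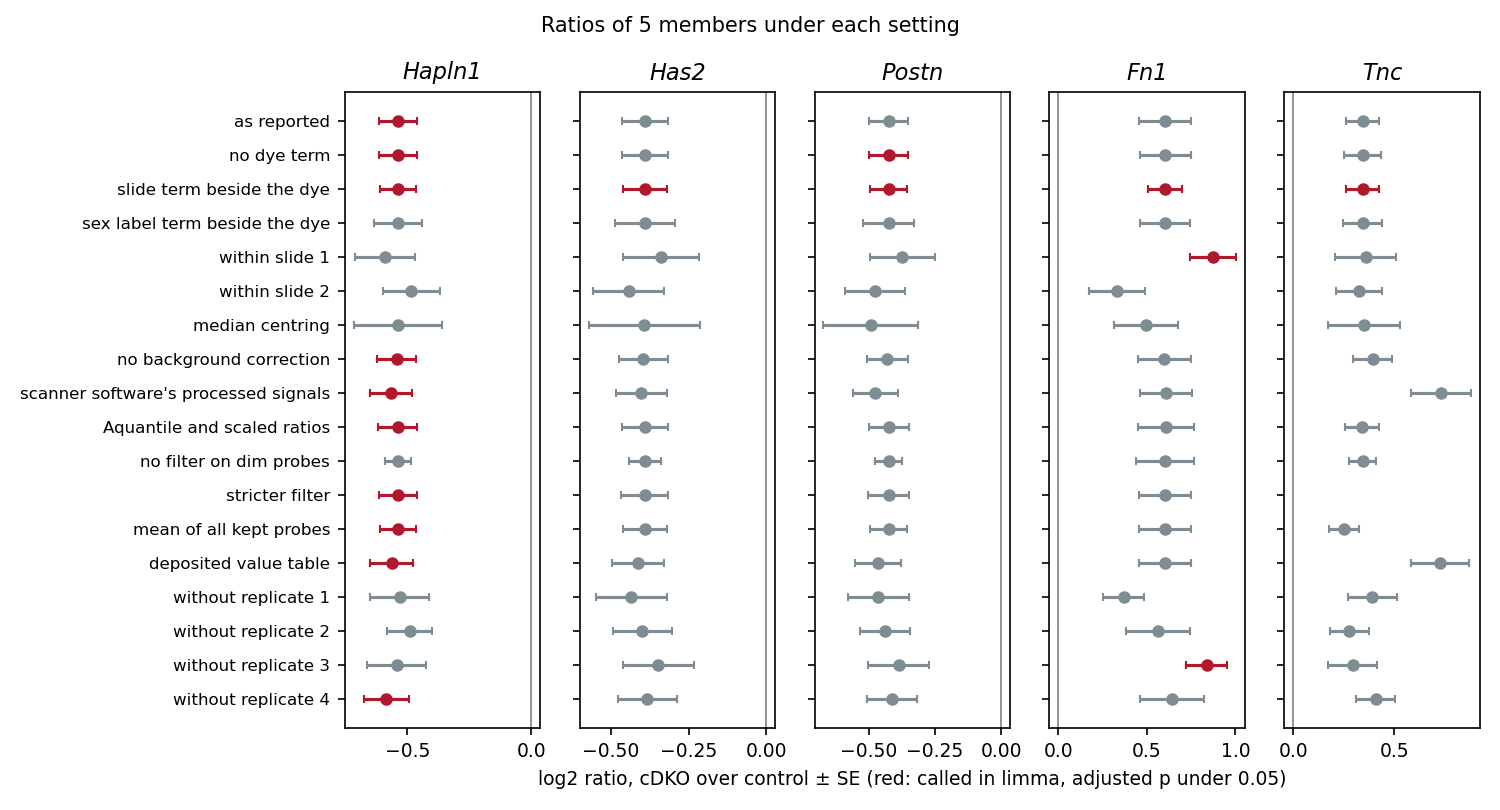
Log2 ratio ± SE (x axis) of 5 members in the fit as reported and in each other setting (y axis), with called values in red. Hapln1, Has2 and Postn stay below 0 and Fn1 and Tnc above 0 in each setting shown, and Tnc reaches 0.73 with the processed signals.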

How the data were processed

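The scanner files held linear intensity values for each spot, which the authors deposited from Feature Extraction 10.7.3.1 (per the submitters' processing notes), with mm9 probe positions per the file headers. They also deposited log10 ratios of red over green, which were not used, and a value table of signed linear fold ratios, whose log2 was set against the arrays' red over green ratios (r = 0.945, -0.935, 0.909 and -0.910). Labelling started from 150 ng of total RNA, per the labels' protocols. Mean signals were corrected with normexp (offset 50) and loess (span 0.3) in limma 3.58.1 (R 4.3.3), with control and outlier spots at weight 0. The 4 spots of a probe were averaged, and ratios were signed by the dye labels. Probes entered the test when 3 or more of the 4 spots passed the scanner's well-above-background flag on every array, in the channel of either genotype, and the brightest of these stood for its gene. Probes were named through their accession (28328), symbol (3400) or synonym (243) in RefSeq and otherwise as on the array (7458). The fit had genotype and dye as terms (2 residual degrees of freedom). Only this fit was run on simulated ratios, and normalization, filter and probe choice were not simulated. Levels are the mean log2 intensity after quantile scaling, plus or minus 0.5 times the ratio. Alternatives covered dye, slide and sex terms, normalization, background, filter, probe choice and each left-out array. The number of arrays limits the precision. Members and lists were chosen with earlier results of these data known. Named genes were all members, the called genes of each list (or the 2 with the smallest p), and the targeted receptors; others were named after their values were seen.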

Additional observations from a re-analysis of the deposited data

Results flagged for a closer look

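With 4 values in a group, a sample was singled out where its gap to the nearest other value exceeded the 95% critical value of Dixon's test as a share of the whole range. Of 48 such tests on the members' probes, 5 did so, and chance alone gives about 1 in 20. The control channel of replicate 1 stood low for the Sparc probe that gives the gene its value, at a level of 16.88. The cDKO channel of replicate 3 stood low for Has2, at 12.40, and that of replicate 4 stood high for Vcan, at 15.43. The Sparc probe at chr11:55207772-55207831 (mm9) had a ratio of -0.080 on replicate 3, with the other arrays at 0.05. The Cd44 probe farthest upstream had a ratio of 0.29 on replicate 4, with the other arrays at -0.22 to -0.15.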

How the results depend on the processing

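No member changed direction in any setting that gave it a value, which the design and the even signs of most members largely set in advance. The count of genes called was 165 as reported, 258 without the dye term, 2418 with slide as a term, 2 with the sex label as a term, 551 within slide 1, 0 within slide 2 (limma, 1346 at an unadjusted p under 0.05), 255 with median centring and 1 without the filter on dim probes; leaving out a replicate gave 34 to 403. Members called numbered 1 as reported, 2 without the dye term, 5 with slide as a term, 0 with the sex label, within slide 2, with median centring or without the filter, and 0 to 1 with a replicate left out. Hapln1 was not called with the sex label (-0.54), within slide 1 (-0.59), within slide 2 (-0.48), with median centring (-0.54) or without the filter (-0.54), and leaving out a replicate gave -0.59 to -0.49. Calls were gained with slide as a term by Has2 (-0.39), Fn1 (0.60), Tnc (0.34) and Postn (-0.42), without the dye term by Postn (-0.42), and by Fn1 within slide 1 (0.87); Fn1 ran from 0.37 to 0.84 with a replicate left out. Tnc passed the filter through the cDKO channel alone, so its call carries no weight. It has no value under the stricter filter, and Has1 has one only without the filter. Fits within a slide, with slide or the sex label as a term, or without a replicate all rest on 1 residual degree of freedom. For Has1, Tnc and Acan signal over background limits what can be seen. Each ratio is taken within 1 array, so each of these fits pairs the genotypes by array.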

Other observations

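The lectican-cutting protease gene Adamts4, named after its values were seen, has probes that go apart. On the probe at chr1:173190709-173190768 (mm9) the ratios were 4.49, 4.20, -0.44 and 0.41 on replicates 1 to 4 (fitted 2.16 ± 0.86, limma adjusted p = 0.239), the largest fitted ratio of all 19365 genes. Its control level was 7.89 and 7.93 on slide 1 and 12.13 and 11.65 on slide 2, while the cDKO level stayed between 11.69 and 12.38, and the difference between slides passed the test (4.36, adjusted p = 0.000292). The probe at chr1:173189952-173190011, listed for the RefSeq transcript, had ratios of -0.49, -0.40, -0.09 and -0.04 (fitted -0.25 ± 0.10, adjusted p over all kept probes 0.253). Among the hyaluronan-binding genes, Tnfaip6, whose product transfers protein chains onto hyaluronan, had ratios of 0.62, 1.01, 0.58 and 0.36 (fitted 0.64 ± 0.11, limma adjusted p = 0.0642), and its second probe had 0.51, 0.63, 0.50 and 0.23. Stab2, a scavenger receptor for hyaluronan, had -0.17, -0.24, -0.81 and -0.60 (fitted -0.46 ± 0.12, adjusted p = 0.132). Both were named after their values were seen, and neither passed the test.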
